A study of Mus musculus with 16 samples.

Results

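The 9 genes described here are interferon-inducible GTPases: the guanylate-binding proteins *Gbp2*, *Gbp3*, *Gbp5*, *Gbp6*, *Gbp7* and *Gbp9*, and the immunity-related GTPases *Irgm1*, *Irgm2* and *Igtp*. They were taken by symbol from a table of 56748 genes, and all 9 had a row. The list was selected on measured values, the log2 fold changes of these genes among EV, gdf6Y and del9, so the differences between plasmids are given for these genes as a description, without a p-value. Poly(A) RNA was sequenced from TM4, an established mouse line with Sertoli-like features, transfected for 24 h with 1 of 3 plasmids at 2.5 µg per well. EV (n = 6) received pcDNA3.1-HA without a *gdf6* insert, gdf6Y (n = 5) the plasmid pcDgdf6Y with the killifish growth factor gene *gdf6Y*, and del9 (n = 5) the plasmid pcDgdf6Ydel9 with a *gdf6Y* variant that carries a small in-frame deletion. All groups had the same Lipofectamine treatment, and no untransfected cells were analysed here. The labels number the replicates but do not say that they were separate cultures, so p-values describe these samples only. Those of edgeR followed the mean count of a gene more than its own replicate spread. The inserts are fish sequences without a row in the mouse table, so the plasmid labels could not be checked from the transgene.

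Guanylate-binding proteins (GBPs) and immunity-related GTPases (IRGs) are large, dynamin-related GTPases that interferon-gamma induces in many cell types, including cells that are not immune cells. The cytokine acts through its receptor and the kinases Jak1 and Jak2 on promoters with a gamma-activated site (GAS), while Stat2-containing complexes and interferon regulatory factors bind the interferon-stimulated response element (ISRE). Effector IRGs and GBPs gather on vacuoles that hold bacteria or parasites and help to break them, while *Irgm1*, *Irgm2* and *Igtp* (also called Irgm3) encode the regulatory IRGs, which keep the effectors inactive on the cell's own membranes.

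The 9 genes lie on 3 chromosomes of the GRCm39 genome, and all are annotated as protein coding. On the plus strand of chromosome 3 follow *Gbp5* (142199739 to 142228105), *Gbp7* (142236044 to 142255910), *Gbp3* (142265731 to 142278979) and *Gbp2* (142326349 to 142343779). *Gbp9* (105224332 to 105287452) and *Gbp6* (105418568 to 105443751) lie on the minus strand of chromosome 5. *Irgm1* (48752795 to 48763164) lies on the minus strand of chromosome 11, and *Igtp* (58089840 to 58098417) and *Irgm2* (58090444 to 58113615) overlap on its plus strand. The annotated starts used for *Igtp* and *Irgm2* are 325 bases apart, and the exons of this pair share 162 bases.

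The stretches around the start sites are shown because the 2 classical interferon elements can be read in them. The window from 250 bases before to 50 bases after the start of the canonical GENCODE transcript was searched on both strands for the GAS letters TTCNNNGAA and the ISRE letters, GAAA, any 2 bases and GAAA again. Capitals mark the matches, and an ISRE on the other strand reads TTTC, any 2 bases and TTTC.
Gbp2: actcttttagTTTCACTTTCactg
Gbp5: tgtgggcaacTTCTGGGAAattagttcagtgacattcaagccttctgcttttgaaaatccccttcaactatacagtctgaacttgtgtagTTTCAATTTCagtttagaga
Gbp7: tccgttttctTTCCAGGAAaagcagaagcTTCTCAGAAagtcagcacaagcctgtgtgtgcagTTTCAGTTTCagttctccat
Irgm1: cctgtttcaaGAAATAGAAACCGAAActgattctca
Irgm2: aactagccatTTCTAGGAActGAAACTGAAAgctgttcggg
In GRCm39 these are chr3:142326355-142326378 (plus strand) for *Gbp2*, chr3:142202440-142202549 (plus) for *Gbp5* and chr3:142235981-142236063 (plus) for *Gbp7*. Those of *Irgm1* and *Irgm2* are chr11:48762252-48762287 (minus) and chr11:58090327-58090367 (plus). The 2 ISRE matches of *Irgm1* overlap each other and begin 30 and 24 bases before the start. In *Irgm2* the ISRE begins 96 bases before the start, with the GAS just ahead of it, and in *Gbp5* the GAS begins 84 bases and the ISRE 4 bases before it. *Gbp7* holds 2 GAS matches, 53 and 34 bases before the start, and an ISRE at the start itself, whereas the ISRE of *Gbp2* begins 16 bases after it.

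Of the 9 windows, 3 held a GAS, 5 an ISRE, 3 both and 4 neither. Among 21630 promoters of the annotation, 8.85% held a GAS, 3.83% an ISRE and 0.57% both. *Gbp3*, *Gbp6*, *Gbp9* and *Igtp* had neither in this window, which says only that these letters are not there. A match is a description of the letters and was not tested as a binding site.

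Levels are given as normalized counts, in which the count of a sample was divided by its total after TMM scaling (trimmed mean of M values) and brought back to the scale of counts with the average of these scaled totals over the 16 samples. Totals ranged from 21486850 to 26444903 reads counted on genes per sample. To compare genes, these values were divided by the exonic length in kb. With EV, *Irgm1* had 544 ± 9.41 normalized counts per kb (SD, n = 6) and *Gbp3* 527 ± 17.2, and the samples of this pair overlapped (530 to 555 and 507 to 551). *Gbp2* followed with 298 ± 14.5, *Irgm2* with 109 ± 3.65 and *Igtp* with 84.4 ± 4.50, each in a range of its own. *Gbp5* (8.55 ± 1.98) and *Gbp9* (6.90 ± 0.282) overlapped, *Gbp7* had 3.52 ± 0.706 and *Gbp6* 0.736 ± 0.327. *Irgm1* thus stood above 92.7% of the 24189 genes with counts in EV samples, *Gbp2* above 86.6%, *Gbp5* above 50.9% and *Gbp6* above 28.7%. The values depend on the length used: with the longest transcript, *Irgm1* stood at 902 and *Gbp3* at 547 normalized counts per kb, and *Gbp5* and *Gbp9* at 16.6 and 11.8.

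**Figure D1:**
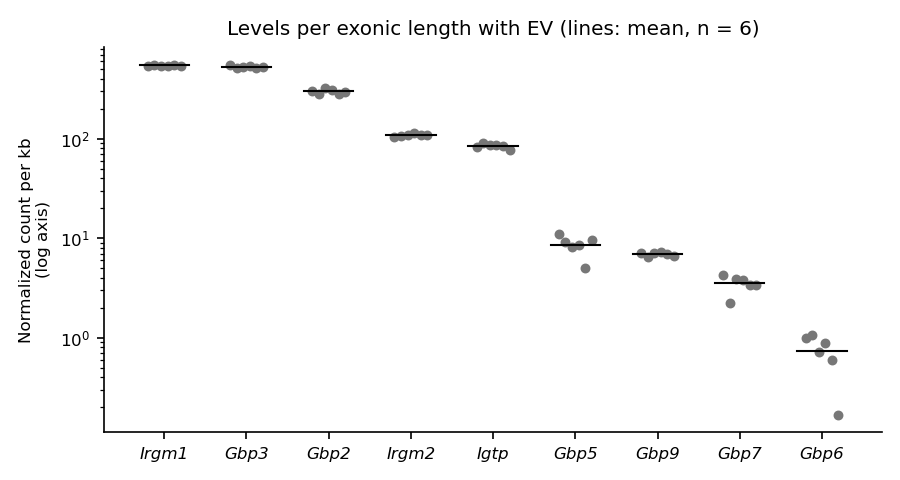
Normalized counts per kb of exonic length (log axis) of the 9 genes in the 6 EV samples (points) with their mean (line), ordered by mean. *Irgm1* and *Gbp3* stand together near the top (544 and 527), and *Gbp6* is lowest at 0.736.

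Only uniquely mapped reads had been counted, which matters for the near-identical copies of this family. For *Gbp6*, 29.7% of the windows of 1 read length in its exons were unique in the genome and free of another gene's exons on the same strand, so its level is uncertain. The share was 84.1% for *Gbp7*, 92.9% for *Igtp*, 94.4% for *Irgm2* and at least 98.0% for the others. *Gbp6* had between 1 and 7 reads per sample, and *Gbp7* between 9 and 27.

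*Gbp2*, which encodes a GBP with a lipid anchor at its end, was lower with both *gdf6Y* plasmids than with EV. Normalized counts were 722 at the lowest, 764 at the median and 818 at the highest with EV. They were 624, 538, 613, 627 and 615 with gdf6Y and 607, 521, 553, 563 and 511 with del9. No sample of either group reached the lowest EV sample, and the gdf6Y and del9 samples overlapped. The log2 fold change ± SE was -0.34 ± 0.04 for gdf6Y against EV (0.791 times the EV level), -0.47 ± 0.04 for del9 against EV (0.723 times) and 0.14 ± 0.05 for gdf6Y against del9. In bulk RNA, fewer cells with a transcript and less of it per cell cannot be told apart.

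*Gbp3*, a GBP of the same cluster, showed the same order of groups with smaller differences. Its normalized counts were 2152, 2233 and 2342 (lowest, median and highest) with EV, 2064, 1876, 1980, 2031 and 2007 with gdf6Y, and 1980, 1880, 2002, 1985 and 1862 with del9. All samples with an insert were below all EV samples. The log2 fold changes were -0.17 ± 0.03 and -0.20 ± 0.03 against EV, and 0.04 ± 0.04 between gdf6Y and del9.

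*Gbp5*, linked to inflammasome assembly in macrophages, varied more between replicates. It had 36.9, 64.0 and 80.2 normalized counts (lowest, median and highest) with EV, 71.0, 41.5, 55.1, 58.7 and 46.1 with gdf6Y, and 42.0, 34.5, 41.5, 68.4 and 36.8 with del9. All 3 groups overlapped. The log2 fold change was -0.18 ± 0.13 for gdf6Y against EV, -0.48 ± 0.13 for del9 against EV and 0.30 ± 0.14 for gdf6Y against del9. *Gbp9* had SEs of the same size at a smaller within-group SD (0.22 against 0.35 for *Gbp5* on the log2 scale). The SEs of *Gbp5* thus understate its replicate spread.

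*Gbp9*, of the chromosome 5 cluster, had 63.2, 67.2 and 69.8 normalized counts with EV, again the lowest, median and highest sample. With gdf6Y the values were 72.9, 50.3, 41.1, 38.8 and 49.4, so 1 sample lay above all EV samples and the other 4 below them. With del9 they were 50.6, 48.9, 43.6, 58.9 and 58.2, all below EV. The log2 fold changes were -0.40 ± 0.13 and -0.35 ± 0.13 against EV, and -0.04 ± 0.14 between gdf6Y and del9.

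*Gbp7*, linked to the assembly of the phagocyte oxidase, and *Gbp6* were close to the counting limit. *Gbp7* had 21.1 ± 4.23 normalized counts with EV (SD, n = 6), 18.8 ± 1.96 with gdf6Y (n = 5) and 16.2 ± 4.48 with del9 (n = 5). *Gbp6* ranged from 1.14 to 7.25 with EV, from 2.96 to 7.51 with gdf6Y and from 2.85 to 5.75 with del9. The groups overlapped for both genes, and the SE of the log2 fold changes lay between 0.22 and 0.24 for *Gbp7* and between 0.42 and 0.45 for *Gbp6*. At this depth a difference of the size of that of *Gbp2* was not detectable in *Gbp6*.

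Among the regulatory IRGs, *Irgm2* differed most from EV. Its normalized counts were 389, 408 and 429 with EV, 338, 341, 339, 362 and 356 with gdf6Y, and 359, 368, 338, 330 and 335 with del9. Neither group overlapped with EV, and the log2 fold changes were -0.22 ± 0.05 and -0.23 ± 0.05. Between gdf6Y and del9 the difference was 0.01 ± 0.06.

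*Igtp*, which overlaps *Irgm2* on the same strand, had 351, 390 and 412 normalized counts with EV, 377, 319, 350, 358 and 355 with gdf6Y, and 325, 347, 312, 357 and 359 with del9. Both groups overlapped with EV. The log2 fold changes were -0.13 ± 0.06 for gdf6Y and -0.18 ± 0.06 for del9 against EV, and 0.06 ± 0.06 between the 2 groups with an insert.

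*Irgm1*, tied to autophagy and lysosomes, had the highest mean level per kb of the 9 and the smallest fold changes against EV. Normalized counts were 3372, 3440 and 3529 with EV, 3281, 3367, 3346, 3348 and 3338 with gdf6Y, and 3225, 3332, 3292, 3239 and 3338 with del9. The groups with an insert did not overlap with EV, though the gap to the lowest EV sample was narrow. The log2 fold changes were -0.05 ± 0.03, -0.07 ± 0.03 and 0.03 ± 0.03 in the same order of comparisons.

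**Figure D2:**
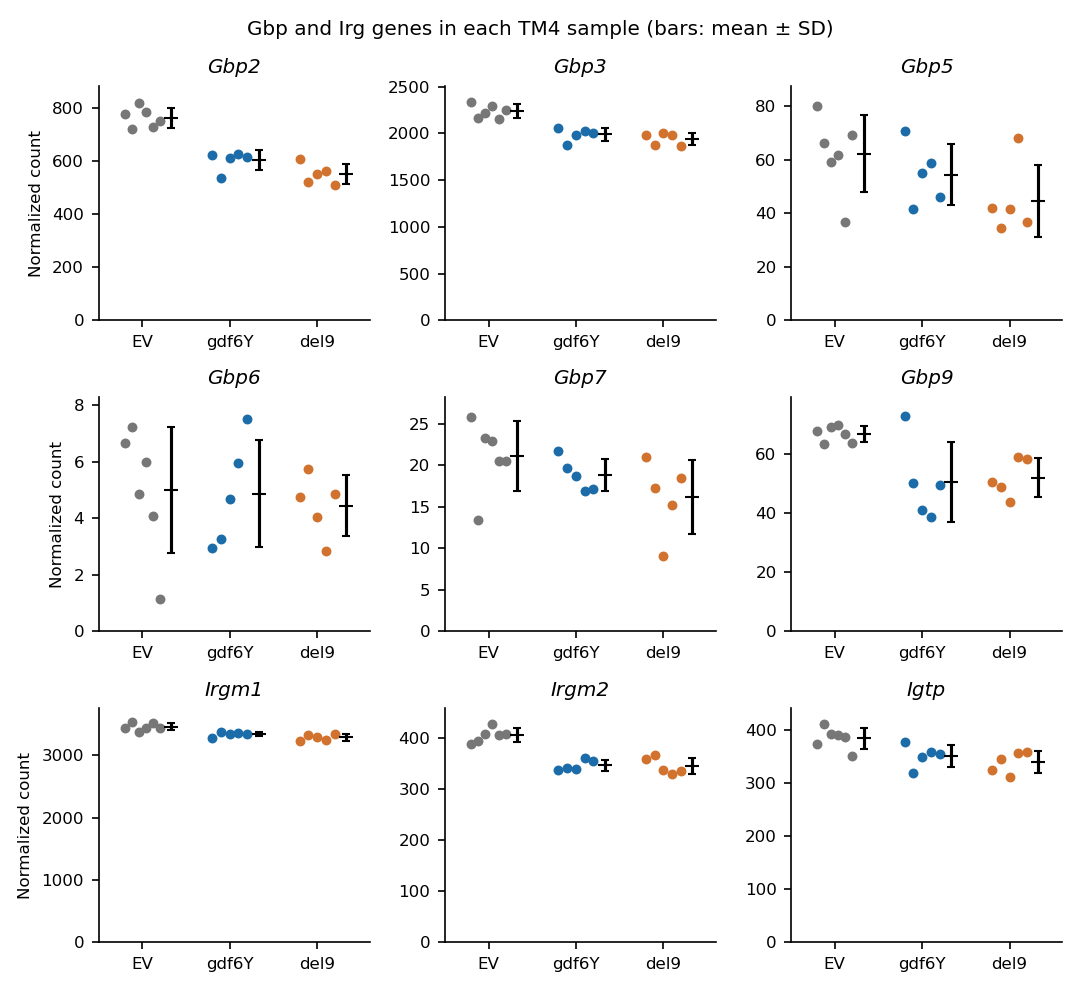
Normalized counts of the 9 genes in each EV (n = 6), gdf6Y (n = 5) and del9 (n = 5) sample; points are samples in the order of their replicate number, and bars give the mean ± SD. The gdf6Y and del9 samples of *Gbp2*, *Gbp3*, *Irgm1* and *Irgm2* lie below all EV samples, whereas the groups of *Gbp5*, *Gbp6*, *Gbp7* and *Igtp* overlap.

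Over the whole table, the quasi-likelihood test of edgeR, adjusted after Benjamini-Hochberg, called 5.08% of 26316 genes in gdf6Y against EV, 3.38% lower and 1.7% higher. *Gbp2*, *Gbp3*, *Gbp9* and *Irgm2* were among the lower ones, 4 of 9. In del9 against EV, 9.25% of 26226 genes were called, 4.82% higher and 4.43% lower, the latter with 5 of the 9: *Gbp2*, *Gbp3*, *Gbp5*, *Irgm2* and *Igtp*. Among the 10781 genes with a mean of at least 50 normalized counts, 12.2% and 20.6% were called, and 4 and 5 of the 7 listed genes of that level. Both comparisons share the EV samples, and the 9 genes had been chosen with them in view, so nothing is read from these counts. The median log2 fold change of the 9 was -0.17 in gdf6Y against EV and -0.23 in del9 against EV, and all 9 were below 0 in both; over all genes tested the medians were -0.0021 and -0.0054. Genes whose first group lay wholly below EV made up 1.35% of all genes tested for gdf6Y and 1.6% for del9, and 4 and 5 of the 9 for the same groups.

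In gdf6Y against del9, 1.01% of 25878 genes were called, 0.41% lower and 0.599% higher, and 0 of the 9 by edgeR. Without adjustment 2 of them had a p below 0.05, and DESeq2 called 0. The 95% intervals of the log2 fold change ran from -0.04 to 0.09 for *Irgm1*, from -0.03 to 0.11 for *Gbp3* and from -0.75 to 1.01 for *Gbp6*. The same replicate numbers go with correlated deviations in gdf6Y and del9 samples, and with the number as a block the count stayed at 0.

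The call of *Gbp9* in gdf6Y against EV held in 8 of 20 alternative fits. It was lost without EV replicate 1 (-0.39), 3 (-0.39) or 4 (-0.39) and without gdf6Y replicate 2 (-0.40), 3 (-0.33), 4 (-0.32) or 5 (-0.39). It was also lost with DESeq2, filterByExpr, at least 10 counts in every sample, no filter or a fit of all 3 groups. In del9 against EV the call of *Gbp5* held in 15 of 20; it was lost without EV replicate 1 (-0.39) or del9 replicate 2 (-0.39), with DESeq2, with filterByExpr and with at least 10 counts in every sample. That of *Igtp* was lost without EV replicate 2 (-0.16) or del9 replicate 3 (-0.15). There *Gbp9* was called in 9 of 20, without EV replicate 2 (-0.37), del9 replicate 4 (-0.40) or del9 replicate 5 (-0.40), and with DESeq2's size factors, total counts, filterByExpr, at least 10 counts in every sample, the newer dispersion estimate or the replicate block. *Irgm1* was called in 5 of 20 fits of del9 against EV, with DESeq2, total counts, filterByExpr, at least 10 counts in every sample or the replicate block. The genes were chosen on these values, so nothing is read from how often a call held.

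Added up, the 9 genes had 7403 ± 77.5 normalized counts with EV (SD, n = 6), 6759 ± 122 with gdf6Y (n = 5) and 6581 ± 41.0 with del9 (n = 5). The sums were 7324 to 7505 with EV and 6555 to 6853 with gdf6Y, without overlap. With del9 they were 6524 to 6619, within or below the gdf6Y range.

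The cells carried some but not all Sertoli cell markers. *Gata4*, *Kitl*, *Dhh*, *Inha*, *Inhbb* and *Sox9* had counts in every sample, while *Wt1* and *Dmrt1* were at 0 in all 16. *Fshr* and *Cldn11* were at 0 in 15 of the 16, and *Amh* had 3 to 13 reads in every sample. With gdf6Y *Gata4* fell by 0.20 ± 0.04 (adjusted p = 9.98e-05, edgeR) and *Inhbb* by 0.10 ± 0.03 (adjusted p = 0.0121) on the log2 scale against EV, and all gdf6Y samples of *Gata4* lay below all EV samples. The summed normalized counts of the 12 markers were 5985 to 6326 with EV, 5538 to 5850 with gdf6Y and 5680 to 6195 with del9; their part in the differences above was not tested. Of 8 leukocyte markers, *Cd3e* and *Itgam* were at 0 in all 16 samples, *Ptprc* had at most 2 reads, and the sums (486 to 766 with EV, 544 to 716 with gdf6Y, 547 to 755 with del9) came almost wholly from *Cd14* and *Cd68*. Summed endothelial, Leydig and germ cell markers stayed at or below 15.4, 35.8 and 6.56 normalized counts per sample, and 3 of the 6 Leydig markers were at 0 throughout.

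The rest of the family offers the same comparisons in genes that are not on the list. These further genes were also listed with earlier results of these data known, and both comparisons with EV share its samples. The lists held 19 further GBP and IRG genes of the table, of which 10 had a mean of at least 10 normalized counts. Of the 18 tested in gdf6Y against EV, 4 were lower and 0 higher by edgeR's quasi-likelihood test, against 5.08% of all genes; of the 19 tested in del9 against EV, 5 were lower and 0 higher, against 9.25%. The log2 fold change was below 0 in 15 of 18 and in 16 of 19, with medians of -0.22 and -0.18. In gdf6Y against del9, 0 of 19 were called, 3 had an unadjusted p below 0.05, and DESeq2 called 0. Without gdf6Y replicate 3 the first count was 2, and without EV replicate 3 the second was 3. DESeq2 called 3 in each comparison with EV. At a mean of at least 50 normalized counts, edgeR called 3 of 7 in gdf6Y against EV and 4 of 7 in del9 against EV. Among all genes of that level the shares were 12.2% and 20.6%.

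*Iigp1*, an effector IRG that loads onto parasite vacuoles, fell with both plasmids. It had 179, 200.8 and 213 normalized counts with EV (lowest, median and highest), 173, 188, 152, 150.3 and 167 with gdf6Y, and 149, 149, 130, 156 and 150.3 with del9. The log2 fold change was -0.24 ± 0.08 for gdf6Y (adjusted p = 0.0352, edgeR) and -0.41 ± 0.08 for del9 (adjusted p = 6.53e-06), and all del9 samples lay below all EV samples.

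The neighbouring IRG genes *9930111J21Rik1* and *9930111J21Rik2* on chromosome 11 had lower means with both plasmids too, with samples that overlapped with EV. *9930111J21Rik1* had 528 to 676 normalized counts with EV, 436 to 536 with gdf6Y and 477 to 665 with del9, with log2 fold changes of -0.29 ± 0.05 (adjusted p = 2.54e-07, edgeR) and -0.17 ± 0.05 (adjusted p = 0.00424). With del9, replicate 2 had 665, near the highest EV sample, and the other samples 477 to 514. In del9 against EV, DESeq2 called 2 of the other IRG genes and edgeR 3, so the call depends on the test for 1 or more of them. *9930111J21Rik2* had 395 to 435, 305 to 398 and 285 to 408, with -0.24 ± 0.05 in both comparisons (adjusted p = 0.000632 and 0.000345, edgeR). These are near-identical copies: only 30.6% and 39.5% of these windows could be counted for 1 gene, so each value is uncertain.

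*Gbp2b*, the chromosome 3 neighbour of *Gbp2*, fell with del9 (-0.40 ± 0.11, adjusted p = 0.00796, edgeR). Its normalized counts were 60.3, 82.9 and 103 with EV and 59.8 to 69.7 with del9, so the lowest EV sample lay within the del9 range. With gdf6Y it had 63.5 to 79.8 and a log2 fold change of -0.21 ± 0.11 (adjusted p = 0.365). *Gbp4* (-0.97 ± 0.33, adjusted p = 0.0372 by edgeR in del9 against EV) and *F830016B08Rik* (-2.09 ± 0.61, adjusted p = 0.016 by edgeR in gdf6Y against EV) were called at means under 10 normalized counts, with at most 17 and 8 reads in any sample.

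The other measured IRG genes did not pass the test against EV. *Ifi47*, an effector IRG, had log2 fold changes of -0.10 ± 0.05 (adjusted p = 0.386, edgeR) with gdf6Y and -0.14 ± 0.05 (adjusted p = 0.0794) with del9. *Tgtp1* and *Tgtp2*, a pair of near-identical effector IRGs of which 20.6% and 19.7% of the windows could be counted, had -0.32 ± 0.15 and -0.17 ± 0.17 with gdf6Y and -0.41 ± 0.15 and -0.19 ± 0.17 with del9. *Gm12185* had -0.08 ± 0.09 and -0.18 ± 0.09, and *Gm5431* had -0.29 ± 0.30 and -0.20 ± 0.30. *Irgq*, an IRG-like gene, had 0.02 ± 0.07 and -0.02 ± 0.07.

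**Figure D3:**
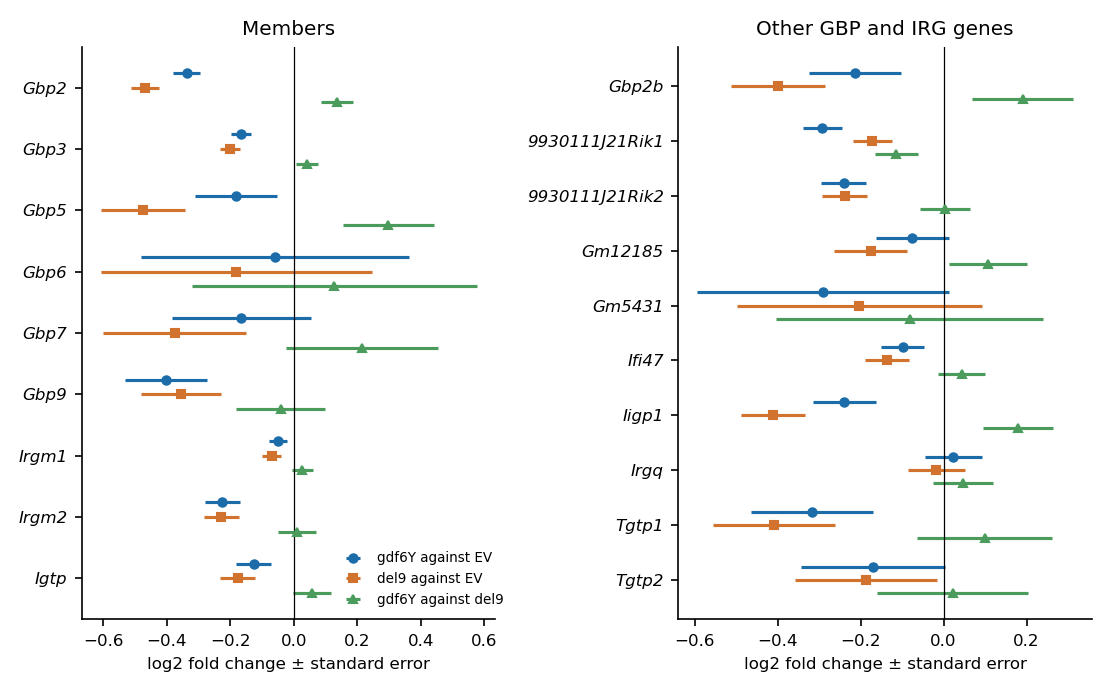
Log2 fold changes ± SE of the 9 genes (left) and of the 10 other GBP and IRG genes with a mean of at least 10 normalized counts (right) for gdf6Y against EV (circles), del9 against EV (squares) and gdf6Y against del9 (triangles). *Gbp2* lies farthest from 0 relative to its error against EV (-0.34 ± 0.04 and -0.47 ± 0.04), *Irgq* lies at 0.02 and -0.02, and the comparisons of *Gbp6* carry errors of 0.42 or more.

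The composite GAS and ISRE of *Irgm2* recurs in the family. The stretches of the *Tgtp* pair are printed for comparison, with capitals as above.
Irgm2: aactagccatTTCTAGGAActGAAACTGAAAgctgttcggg
Tgtp1: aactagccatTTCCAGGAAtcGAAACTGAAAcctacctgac
Tgtp2: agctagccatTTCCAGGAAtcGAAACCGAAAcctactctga
They lie at chr11:48883131-48883171 (minus strand) for *Tgtp1* and chr11:48955090-48955130 (minus strand) for *Tgtp2* in GRCm39. *Gm12185* has the same annotated window as *Tgtp1*. Among the windows of the 14 other IRG genes, 7 held a GAS, 9 an ISRE and 7 both, with the shared window counted for both genes; among those of the 5 other GBP genes, 1 held both and 4 neither.

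Interferon genes and partners of the GTPases were read from 67 genes in 6 lists, of which 63 were tested in each comparison. Of these 67, 41 were in the 3 lists of interferon signalling and inducible genes and 26 in the 3 lists of partners. In gdf6Y against EV, 5 were lower and 1 higher by edgeR's quasi-likelihood test (9.52%, against 5.08% of all genes tested). In del9 against EV, 10 were lower and 2 higher (19.0%, against 9.25%). These shares are set against all genes; among the 10781 genes with a mean of at least 50 normalized counts, 12.2% and 20.6% were called, and among the 50 listed genes of that level 12% and 24%. In del9 against EV, 7 of the 39 tested interferon genes (17.9%) and 5 of the 24 tested partners (20.8%) were called, and in gdf6Y against EV 5 and 1. The medians of the log2 fold changes were -0.02 in both comparisons.

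Receptors and kinases did not pass the test. For *Ifngr1* and *Ifngr2*, which encode the receptor chains, the log2 fold changes against EV were 0.06 ± 0.05 and 0.10 ± 0.05 with gdf6Y and 0.05 ± 0.05 and 0.07 ± 0.05 with del9. Those of *Jak1* were -0.03 ± 0.03 and -0.02 ± 0.03, and those of *Jak2* 0.01 ± 0.03 and -0.03 ± 0.03. The adjusted p-values of these genes by edgeR lay between 0.312 and 0.913.

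The transcription factors *Stat2*, which acts downstream of type I interferon, and *Irf7* fell with both plasmids. *Stat2* had 2107, 2568 and 2675 normalized counts with EV (lowest, median and highest), 2249, 1980, 2101, 2129 and 1854 with gdf6Y, and 2209, 1917, 1937, 2089 and 1899 with del9, with overlap. Its log2 fold changes were -0.25 ± 0.03 (adjusted p = 2.74e-11, edgeR) and -0.28 ± 0.03 (adjusted p = 2.45e-17). These SEs and p-values followed the mean count more than the replicate spread of *Stat2*, which they understate. Those of *Irf7* were -0.13 ± 0.03 (adjusted p = 0.00186) and -0.17 ± 0.03 (adjusted p = 2.71e-06).

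*Irf1*, which binds the ISRE and is itself induced by interferon-gamma, did not pass the test. Its log2 fold changes were -0.09 ± 0.03 with gdf6Y (adjusted p = 0.0628, edgeR) and -0.02 ± 0.03 with del9 (adjusted p = 0.713).

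*Socs3*, a feedback inhibitor of Jak signalling, fell by 0.19 ± 0.04 on the log2 scale with gdf6Y (adjusted p = 8.43e-06, edgeR) and by 0.12 ± 0.03 with del9 (adjusted p = 0.00781). Among other interferon-inducible genes, the chemokine gene *Cxcl10* had -0.20 ± 0.04 (adjusted p = 5.36e-06, edgeR) and -0.26 ± 0.03 (adjusted p = 1.13e-12). Both groups overlapped with EV, and the lowest EV samples lay below the means of gdf6Y (1541) and del9 (1484). The SEs do not reflect this spread. DESeq2 called 1 and 2 genes of this list of inducible genes against EV, where edgeR called 2 and 3. *Parp14*, an ADP-ribosyltransferase gene, had 686, 776 and 818 normalized counts with EV, 670, 642, 607, 553 and 558 with gdf6Y, and 667, 732, 702, 670 and 667 with del9. Its log2 fold changes were -0.34 ± 0.04 (adjusted p = 7.43e-12, edgeR) and -0.16 ± 0.04 (adjusted p = 0.00355), and all gdf6Y samples lay below all EV samples. *B2m*, the light chain of class I major histocompatibility molecules, fell with del9 (-0.10 ± 0.02, adjusted p = 0.00229) and had -0.06 ± 0.03 with gdf6Y (adjusted p = 0.225).

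*Parp14* was the 1 of 63 listed genes called between gdf6Y and del9 (-0.18 ± 0.05, adjusted p = 0.0236, edgeR), against 1.01% of all genes. With the replicate number as a block, *Parp14* (-0.18 ± 0.04, adjusted p = 0.00179) and the Janus kinase gene *Tyk2* (-0.16 ± 0.05, adjusted p = 0.0272) were called. DESeq2 called 0 of the 63. The count was also 0 without gdf6Y replicate 3, 4 or 5 and without del9 replicate 2 or 3.

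The 3 lists of partners held genes of Atg8 conjugation, lipid anchoring and cell death. Of 11 genes of the Atg8 conjugation machinery, which places effector IRGs on vacuoles, 0 were called with gdf6Y (1 at an unadjusted p below 0.05, and 0 by DESeq2), and *Atg12* fell with del9 (-0.13 ± 0.04, adjusted p = 0.0209, edgeR). Of 6 genes for lipid anchoring, 0 were called with gdf6Y (2 unadjusted, and 0 by DESeq2). With del9 *Pggt1b*, a subunit of the enzyme that adds geranylgeranyl groups, fell (-0.14 ± 0.04, adjusted p = 0.00698, edgeR) and *Fnta*, a subunit shared with the enzyme that adds farnesyl groups, rose (0.09 ± 0.03, adjusted p = 0.0367). Of 7 tested cell death genes linked to GBPs, the initiator caspase gene *Casp8* rose with both plasmids (0.13 ± 0.04, adjusted p = 0.00756, and 0.11 ± 0.04, adjusted p = 0.0215, edgeR). *Casp4*, the receptor of cytosolic lipopolysaccharide, fell with del9 (-0.27 ± 0.07, adjusted p = 0.00485) and had -0.22 ± 0.07 with gdf6Y (adjusted p = 0.0605).

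**Figure D4:**
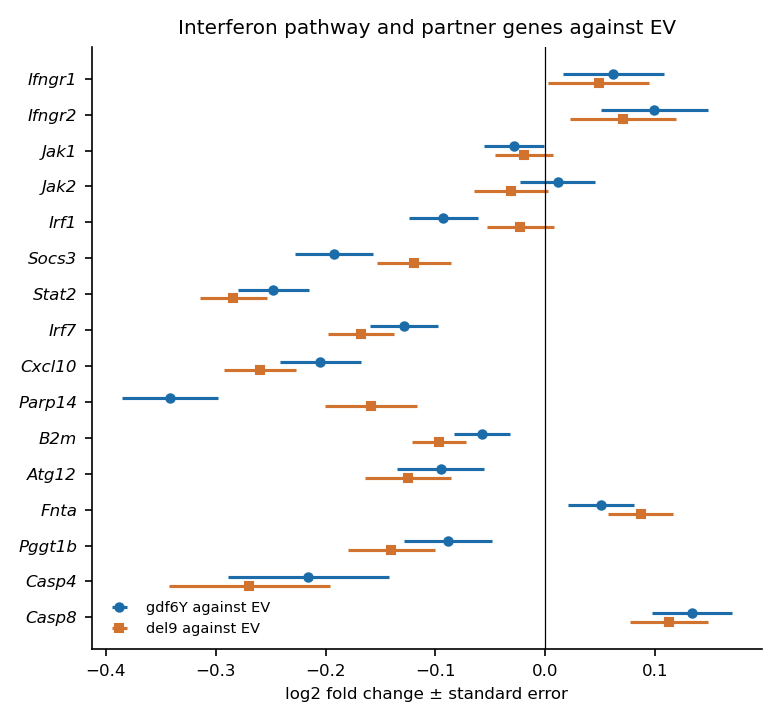
Log2 fold changes ± SE against EV of the named interferon genes and of the partners of the GTPases, for gdf6Y (circles) and del9 (squares). *Parp14* lies farthest below 0 with gdf6Y (-0.34) and *Stat2* with del9 (-0.28), the receptor genes *Ifngr1* and *Ifngr2* lie between 0.05 and 0.10, and *Casp8* lies above 0 in both comparisons.

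How the 9 genes vary between replicates of 1 plasmid does not use the differences between plasmids. It was read as the deviation of log2 CPM (counts scaled to a common total) from the mean of the group, for the 7 genes with a mean of at least 50 normalized counts. The pooled SD of these deviations was 0.35 for *Gbp5*, 0.22 for *Gbp9*, 0.09 for *Gbp2*, 0.08 for *Igtp* and 0.05 for *Gbp3*. These were 1.78, 1.13, 1.52, 1.11 and 1.56 times what counting alone gives at these depths. The spread of *Irgm2* and *Irgm1* was at 0.722 and 0.863 times the counting error, so their replicates did not differ beyond it.

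Among the 21 pairs of these 7 genes, 3 had an adjusted permutation p below the threshold for Pearson's r (100000 permutations within groups, two-sided, 16 samples), and 11 had an r above 0. *Gbp2* and *Gbp3* deviated together (r = 0.78, permutation p = 0.00199, adjusted p = 0.0209), though Spearman's rho of 0.64 did not pass after adjustment (permutation p = 0.0158, adjusted p = 0.111). Without the 2 samples farthest from the median of *Gbp2*, r was 0.63. *Gbp3* and *Gbp5* had an r of 0.70 (permutation p = 0.00346, adjusted p = 0.0242), a rho of 0.69 (permutation p = 0.00504, adjusted p = 0.0529) and an r of 0.66 without the 2 farthest samples. *Gbp2* and *Irgm1* deviated in opposite directions (r = -0.82, permutation p = 0.00054, adjusted p = 0.0113; rho = -0.81, permutation p = 0.00065, adjusted p = 0.0136; r = -0.86 without the 2 farthest). The deviations of *Irgm1* in that pair are within the counting error given above, and genes of 1 sample share a library and its scaling. These p-values treat the samples of a group as exchangeable and do not take the shared replicate numbers into account.

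**Figure D5:**
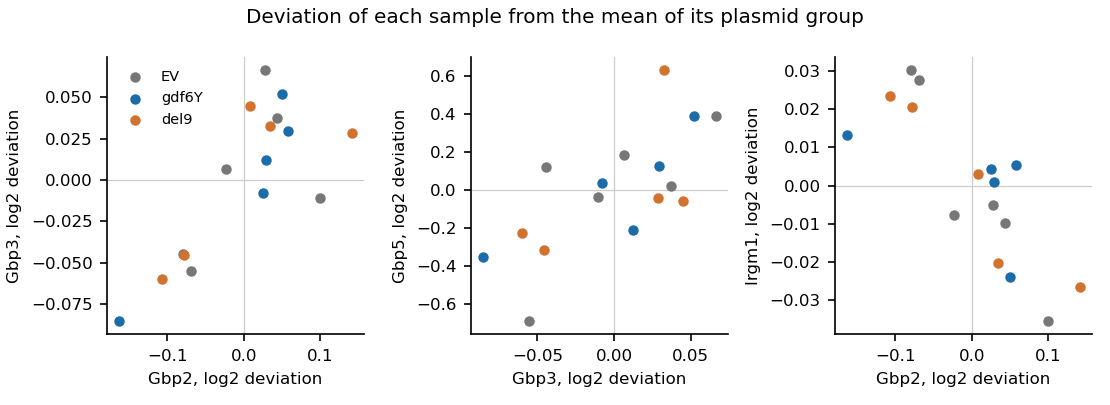
Deviation of each sample from the mean of its plasmid group on the log2 scale, for *Gbp2* and *Gbp3* (r = 0.78), *Gbp3* and *Gbp5* (r = 0.70) and *Gbp2* and *Irgm1* (r = -0.82); each point is 1 of 16 samples, coloured by plasmid. The first 2 pairs rise together, and the third falls over a vertical span of a few hundredths of a log2 unit.

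Samples with the same replicate number resembled each other in some of these genes. The samples numbered 2 and 5 were the lowest EV samples of *Gbp2* (722 and 727 normalized counts) and of *Gbp3* (2168 and 2152). They were also the lowest del9 samples of *Gbp2* (521 and 511) and of *Gbp3* (1880 and 1862). With gdf6Y replicate 2 was the lowest (538 and 1876) and replicate 5 the median of the group (615 and 2007). For *Cxcl10* the samples numbered 2 and 5 were lowest in all 3 groups, at 1364 and 1352 normalized counts with EV, 1328 and 1375 with gdf6Y and 1267 and 1306 with del9, where the others lay at 1558 or above. The labels do not say what the number stands for. This pattern was seen in the data and was not tested for these genes.

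Outside the lists, the genes most like the 9 were sought by Pearson's r between their deviations and the mean deviation of the 7 genes, over 16 samples and 10712 genes with a mean of at least 50 normalized counts. Among the 5 highest were *Vps26b*, a retromer subunit gene (r = 0.88), the homeobox gene *Hoxc6* (0.85), the radial spoke gene *Rsph3a* (0.84) and the inositol transporter gene *Slc5a3* (0.83). This mean profile followed mainly *Gbp5* (r = 0.88), while *Irgm1* and *Irgm2* ran against it (-0.66 and -0.27). The values are a description of the same libraries, and the highest of 10712 are given without a p.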

How the data were processed

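RNA-Seq of 16 TM4 samples was analysed. The authors extracted molecular identifiers with UMI-tools 1.1.1, aligned reads with STAR 2.7.10a to GRCm39 (Ensembl release 107), removed PCR duplicates and counted uniquely mapped reads per gene and strand with FeatureCounts 2.0.3. The deposited counts are whole reads and were not normalized. Columns of per-sample values that match no sample were not present (0).

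Groups and replicate numbers came from the labels. Genes with 1 count or more in the samples compared were scaled with TMM and compared with edgeR 4.0.16 (R 4.3.3; quasi-likelihood, legacy estimate), 2 groups per model, without covariates; genes with an adjusted p-value below 0.05 (Benjamini-Hochberg, all genes) were called. SEs were the log2 fold change over the root of the F statistic, and 95% intervals from the SE. They followed the mean count of a gene more than its own replicate spread. *Gbp5* and *Gbp9* both had SEs of 0.13 against EV, at within-group SDs of 0.35 and 0.22 on the log2 scale. SEs and p-values by edgeR can thus be too small for genes whose replicates vary widely. Symbols, lengths and start sites came from GENCODE vM39, which matched 56017 of 56748 identifiers and is a later release than that used for counting. Deviations used a prior count of 2.

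The 9 genes and all gene lists were chosen with earlier results of these data known. Named were the 9 genes, other GBP and IRG genes (in full at a mean of at least 10 normalized counts), up to 4 called genes per pathway list, always *Ifngr1*, *Ifngr2*, *Jak1*, *Jak2* and *Irf1*, and the 5 genes most alike; *Tyk2* and the marker genes were named after their values were seen. Genes that these rules name and the text leaves out are not reported here. Of 21 other family symbols listed, 2 had no match. The tests of pairs of deviations were added after the data were seen. Alternatives were DESeq2 1.42.0, its size factors, total counts, filterByExpr, at least 10 counts in every sample, no filter, all 3 groups in one model, edgeR's newer dispersion estimate, the replicate number as a block, and each replicate left out. The numbers were taken to pair gdf6Y with del9 samples, where the 5 same-numbered pairs had correlations of deviations from 0.145 to 0.180 over 11899 genes. The steps were tested on simulated counts. No replicate pair differed by less than the sampling noise (chi-square per degree of freedom 1.43 to 12.0 over 35 pairs).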

Additional observations from a re-analysis of the deposited data

Results flagged for a closer look

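In 57 sets of values (a gene in the samples of 1 plasmid), the gap of an extreme sample to its neighbour was divided by the range and compared with Dixon's 95% critical value; 6 exceeded it, where chance gives about 2.85. For *Gbp2* with gdf6Y the ratio was 0.841, where replicate 2 had 538 normalized counts and the other samples 613 to 627. For *Gbp5* with del9 it was 0.778, where replicate 4 had 68.4 and the other samples 34.5 to 42.0. Among the other family genes it was 0.801 for *9930111J21Rik1* with del9 (665 in replicate 2, 477 to 514 elsewhere) and 0.737 for *Iigp1* with del9 (130 in replicate 3, 149 to 156 elsewhere). *Tgtp2* with del9 reached 0.739 (28.4 in replicate 3, 30.1 to 30.7 elsewhere). *Gm5431* with EV reached 0.774, where replicate 5 had 7.17 and the other samples 11.4 to 12.6.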

How the results depend on the processing

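Over 20, 19 and 20 alternatives, 3 to 4 of the 9 genes were called in gdf6Y against EV, 0 in gdf6Y against del9 and 4 to 7 in del9 against EV. DESeq2 moved the count of other family genes in del9 against EV from 5 to 3. The 1 listed interferon or partner gene of gdf6Y against del9 became 0 with DESeq2, filterByExpr, at least 10 counts in every sample, no filter or the newer dispersion estimate, and 2 with the replicate block. Leaving out replicates gave 2 to 4 other family genes in gdf6Y against EV, 3 to 6 in del9 against EV, and 0 to 1 of these listed genes in gdf6Y against del9. It also turned the sign of log2 fold changes near 0: *Gbp6* in gdf6Y against EV (-0.25 to 0.081), and in gdf6Y against del9 *Gbp6* (-0.068 to 0.26), *Gbp9* (-0.22 to 0.040) and *Irgm2* (-0.012 to 0.030). The cause was not tested. With the longest transcript, EV levels per kb were 547 for *Gbp3*, 16.6 for *Gbp5*, 11.8 for *Gbp9*, 104 for *Igtp*, 902 for *Irgm1* and 114 for *Irgm2*.

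Same-numbered samples had correlations of 0.077 to 0.23 between gdf6Y and EV (over 0.1 in 4 of 5) and of 0.041 to 0.18 between del9 and EV (3 of 5), so the limit of 0.1 in every pair was not met and the numbers were not taken to pair these groups; 3 and 2 of 5 samples correlated best with their own. The mean was 0.154 and 0.116, against 0.162 between gdf6Y and del9. With the replicate block, 4 of the 9 genes were called in gdf6Y against EV, 0 in gdf6Y against del9 and 7 in del9 against EV, the last adding *Gbp9* and *Irgm1*. Over all genes the block called 2114, 661 and 3007, against 1338, 261 and 2425. The 261 became 81 with DESeq2, 45 with filterByExpr, 44 with at least 10 counts in every sample, 163 with the newer dispersion estimate and 160 to 441 without 1 replicate, and the 1338 became 794 without gdf6Y replicate 5. Counts under about 30, as in *Gbp6* and *Gbp7*, limit what can be seen at this depth.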

Other observations

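Of the interferon genes themselves only *Ifng* and *Ifnb1* were looked up. Both were close to absent from the reads, and they are named here after their values were seen. *Ifng*, which encodes interferon-gamma, had 0 to 2 reads per sample in each group, and *Ifnb1*, which encodes interferon-beta, had 1 to 5 reads with EV, 0 to 5 with gdf6Y and 0 to 3 with del9. *Irf8* and *Ciita*, interferon-gamma targets of myeloid and antigen-presenting cells, had at most 1 read in any sample. The chemokine gene *Cxcl9* had 0 to 4 reads with EV, 0 to 3 with gdf6Y and 0 to 1 with del9, while *Cxcl11* had 14 to 20, 8 to 13 and 9 to 15 and was not called in any comparison. At such counts differences between plasmids cannot be read for the first 5 of these genes.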
